A study of Mus musculus with 6 samples.

Results

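The 4 TEAD transcription factors, their coactivators YAP and TAZ and 3 members of the Hippo cascade that restrains them were followed in mouse epidermis lacking Sox4, Sox11 or both. The 9 genes (Tead1, Tead2, Tead3, Tead4, Yap1, Wwtr1, Lats1, Lats2 and Amotl2) were taken as a named list and found on the array through the transcript accession of each probe. They account for 9 of the 21370 genes named on the array and for 13 of its 55681 probes. The list was not chosen on measured values, but it was drawn up with earlier results of these arrays known.

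Each of the 6 arrays compared RNA of mutant epidermis with RNA of wild-type littermate epidermis at embryonic day 16 (E16). The labels give the strain as 129SvEx:C57BL/6, which in the methods is that of the floxed mice, and the Krt14-Cre mice they were crossed to were FVB/N. The mutants were Sox4 cKO (floxed Sox4 deleted by Krt14-Cre, which acts in keratinocytes from the basal layer of the epidermis), Sox11 cKO (floxed Sox11, same Cre) and dcKO (both genes), with 2 arrays per genotype and the dyes exchanged between replicates 1 and 2. Because Cre is driven by Krt14, cells that never expressed Krt14 keep both Sox genes, and the epidermis was peeled from dorsal skin with dispase. The floxed stock from which the mice were derived also carried a Sox12 deletion, and its status in these embryos is not stated in the sources used here, nor is it stated whether tissue of several embryos was pooled or whether the arrays share wild-type embryos.

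TEAD proteins bind DNA but activate transcription poorly until YAP (Yap1) or TAZ (Wwtr1) joins them. In the Hippo cascade, MST kinases activate the kinases LATS1 and LATS2, which phosphorylate YAP and TAZ and keep them out of the nucleus, while angiomotin-like 2 (Amotl2) holds YAP at junctions. In embryonic epidermis, nuclear YAP is known for keeping basal cells dividing, and Tead2 has been described as a gene that SOX4 and SOX11 regulate. The study also reports binding of tagged SOX11 and SOX4 to a known site in Tead2, in cultured keratinocytes. SOX11 activated a reporter carrying a bound Tead2 region there. Those regions were not compared with the sequence searched here.

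Values are log2 ratios of mutant over wild-type signal, so that -1 is a halving in the mutant, and a gene passed when its adjusted p in limma, over all probes, was under 0.05. A gene with several probes is represented by the brightest of them. All 12 of 12 keratinocyte markers were well above background in every sample. The arrays lay on 1 slide scanned once, 37.7 to 42.3% of probes were well above background in a sample, and no spot was saturated. The deletion of Sox4 was seen in its dimmer probe, which was not well above background in any Sox4 cKO or dcKO mutant sample. It fell at least 3.05-fold in the former (adjusted p = 0.0284) and at least 3-fold in the latter (adjusted p = 0.00223). The brighter Sox4 probe gave -0.42 (adjusted p = 0.802) and -0.82 (adjusted p = 0.0768), respectively. Neither Sox11 probe was well above background in a Sox11 cKO or dcKO mutant sample. The brighter one was so in 1 of the 2 wild-type samples of each genotype, so the arrays could not check the deletion of Sox11. The study reports a check by RT-qPCR of the loss of Sox4 and Sox11 in the respective mutants, on the RNA then used for the arrays. No fold is given for Sox11. Sox12 was well above background in 1 of 12 samples.

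The sequence ahead of Tead2 is shown first because Tead2 is the member whose level fell. SOX proteins of this family bind short A/T-rich cores, written here as ACAAAG and ACAATG, and both strands of the 250 bases before each RefSeq transcript start (GRCm38.p6) were searched. Tead2 holds 1 ACAAAG, in capitals, 23 bases before the start.

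Tead2, chr7:45215542-45215791, plus strand: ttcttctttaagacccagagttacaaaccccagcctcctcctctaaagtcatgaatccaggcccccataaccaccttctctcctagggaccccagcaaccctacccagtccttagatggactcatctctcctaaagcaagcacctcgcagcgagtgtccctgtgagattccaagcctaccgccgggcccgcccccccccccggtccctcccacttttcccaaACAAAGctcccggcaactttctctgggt

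Sequences were available for 7 of the 9 members, all but Tead1 and Tead4. Tead2 was the 1 member of these 7 with ACAAAG, and none held ACAATG. Of all 32851 windows of this length 16.5% hold ACAAAG and 10.7% hold ACAATG. Counted by gene, the shares are 18.6% and 12.2% of 27025 genes, so a single ACAAAG is common and its presence is a description only. The core that TEAD proteins bind, GGAATG, lies in 12.6% of windows and in 14.4% of genes. It was found in 4 of the 7 members, Yap1, Wwtr1, Amotl2 and Tead3, but not in Tead2, Lats1 or Lats2. Tead3 holds 3 matches over 2 of its 3 starts, and a gene with several starts has more sequence to hold a match. The AP-1 motif TGACTCA, often found beside TEAD sites, was in none of the 7 and lies in 4.46% of windows and 5.16% of genes. The motifs do not overlap each other in these windows. One GGAATG per gene is shown, in capitals and read on either strand (CATTCC is the same motif on the opposite strand).

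Yap1, chr9:8004715-8004754, minus strand: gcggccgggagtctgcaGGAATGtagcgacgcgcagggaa
Wwtr1, chr3:57576024-57576063, minus strand: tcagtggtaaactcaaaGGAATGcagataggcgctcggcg
Amotl2, chr9:102717722-102717761, plus strand: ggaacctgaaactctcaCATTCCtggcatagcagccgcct
Tead3, chr17:28350965-28351004, minus strand: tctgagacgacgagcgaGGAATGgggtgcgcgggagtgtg

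Tead2 fell in dcKO epidermis and was the only one of the 9 members to pass in any genotype, while the other TEAD genes, Yap1, Wwtr1, Lats1, Lats2 and Amotl2 did not pass in any of the 3. In dcKO 0.309% of all probes passed lower and 0.524% higher, and 1 of 9 members passed. In Sox4 cKO 0.00539% of probes passed lower and 0% higher, in Sox11 cKO 0% in either direction, and no member passed in either. At an unadjusted p under 0.05 in limma, the members were 1 for Sox4 cKO (Tead2), 1 for Sox11 cKO (Tead4) and 4 for dcKO (Tead1, Tead2, Tead4 and Lats2), against 3439, 3923 and 5509 probes. With the fold requirement in the study's methods (a log2 ratio beyond 1.5, adjusted p under 0.05), 0.207% of probes were called in dcKO. No member was among them. The study's figure legend for these arrays words it instead as a fold change over 1.5. Tead2 in dcKO, at 0.547 of the wild-type signal (adjusted p = 0.0323 in limma), would meet that wording. Over the 9 members the Sox4 cKO median was 0.05, the Sox11 cKO median 0.02 and the dcKO median -0.07, beside 0.00, 0.00 and -0.01 over all named genes.

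**Figure D1:**
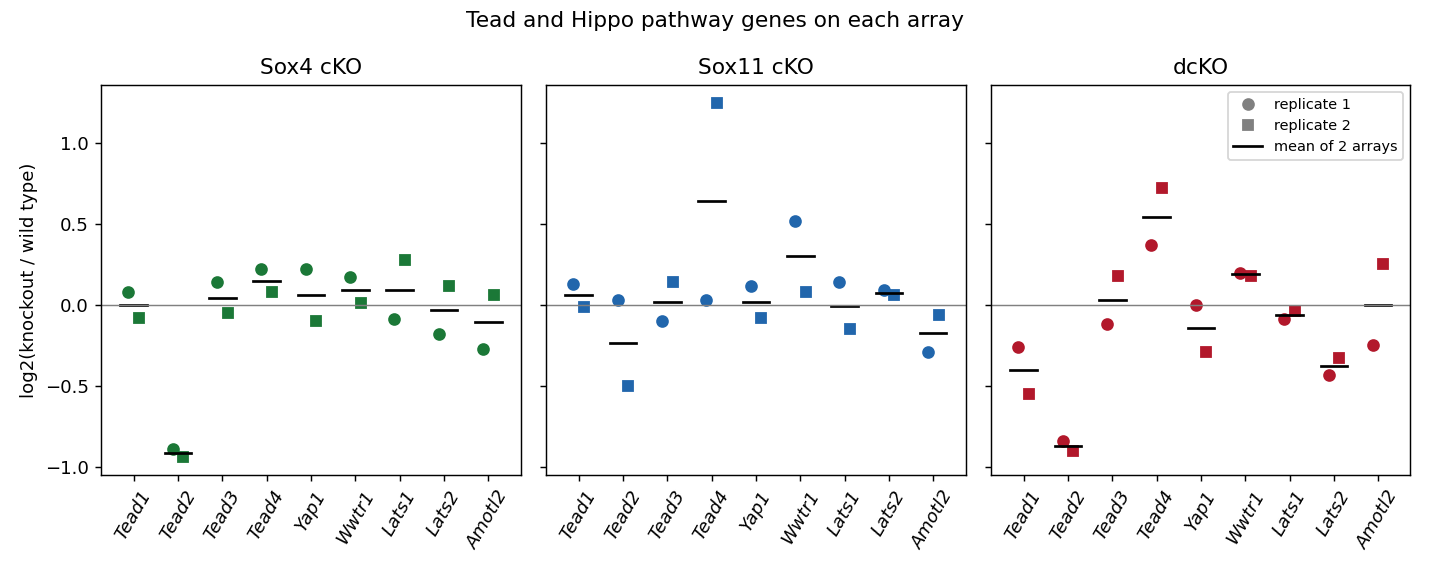
Each point is 1 array, with the log2 ratio of mutant over wild-type signal on the vertical axis and the 9 genes on the horizontal axis, in 1 panel per genotype. Circles are replicate 1, squares replicate 2 and bars the mean of both. Tead2 lies between -0.94 and -0.84 on the 4 arrays of Sox4 cKO and dcKO and at 0.03 and -0.50 on the arrays of Sox11 cKO.

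On its brighter probe, the log2 ratio of Tead2 was -0.89 and -0.94 in Sox4 cKO, 0.03 and -0.50 in Sox11 cKO, and -0.84 and -0.90 in dcKO. Both arrays of Sox4 cKO and both of dcKO thus lay together, below both arrays of Sox11 cKO. The mean in dcKO was -0.87 ± 0.04 (SD, n = 2), which is 0.547 of the wild-type signal (95% interval of the log2 ratio -1.19 to -0.55, adjusted p = 0.0323). In Sox4 cKO it was -0.92 ± 0.04 (SD, n = 2), or 0.53 of wild type (interval -1.24 to -0.59), which did not pass after adjustment in limma over all probes (unadjusted p = 0.00014, adjusted p = 0.299). In Sox11 cKO it was -0.24 ± 0.38 (SD, n = 2, interval -0.56 to 0.09, adjusted p = 0.779). On this probe the Sox11 cKO mean was carried by replicate 2, and was 0 without it.

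The second Tead2 probe gave the same order. Its log2 ratio was -0.79 and -0.85 in Sox4 cKO, -0.17 and -0.44 in Sox11 cKO, and -0.91 and -1.13 in dcKO. In dcKO the mean was -1.02 ± 0.15 (SD, n = 2, adjusted p = 0.00927), in Sox4 cKO -0.82 ± 0.04 (n = 2, adjusted p = 0.299) and in Sox11 cKO -0.30 ± 0.19 (n = 2, adjusted p = 0.706). Of all 55681 probes, 64 (0.115%) had a log2 ratio as low as the brighter Tead2 probe or lower in Sox4 cKO, 203 (0.365%) in dcKO and 4901 (8.8%) in Sox11 cKO.

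That Tead2 passed in dcKO and not in Sox4 cKO does not show a difference between them, which was tested directly. The log2 ratio of the brighter Tead2 probe in dcKO minus that in Sox4 cKO was 0.05 (interval -0.41 to 0.50, adjusted p = 0.993), and that of the other probe -0.20 (interval -0.62 to 0.21, adjusted p = 0.92). Against Sox11 cKO the gap was wider, -0.63 for dcKO (interval -1.09 to -0.18, adjusted p = 0.592) and -0.68 for Sox4 cKO (interval -1.14 to -0.22, adjusted p = 0.929), and neither passed. The log2 ratio in dcKO differed from the sum of those in the single mutants by 0.28 on the brighter probe (interval -0.28 to 0.84, adjusted p = 0.904) and by 0.10 on the other (adjusted p = 0.977). No member passed in any of these tests of a difference in limma. At an unadjusted p under 0.05 there were 0 members for dcKO against Sox4 cKO and 3 for dcKO against Sox11 cKO. There was 1 for Sox4 cKO against Sox11 cKO and 0 for dcKO against the sum. Of all 55681 probes, 3405, 4016, 2939 and 3553 were under that unadjusted p in these 4 tests, in the same order. The share of all probes that passed after adjustment was 0.147%, 0.163%, 0.0018% and 0.088%, again in that order.

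Tead2 was well above background in all 12 samples on both probes, so the drop was measured between detected levels. On the log2 scale of normalised signal, the level on the brighter probe in wild-type samples was 7.73 and 7.81 beside Sox4 cKO, 7.90 and 8.33 beside Sox11 cKO, and 7.81 and 7.77 beside dcKO. The level in mutant samples was 6.83 and 6.87 in Sox4 cKO, 7.93 and 7.83 in Sox11 cKO, and 6.97 and 6.87 in dcKO. The 4 mutant samples of Sox4 cKO and dcKO were below every wild-type sample, and the 2 Sox11 cKO samples lay within the wild-type range.

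**Figure D2:**
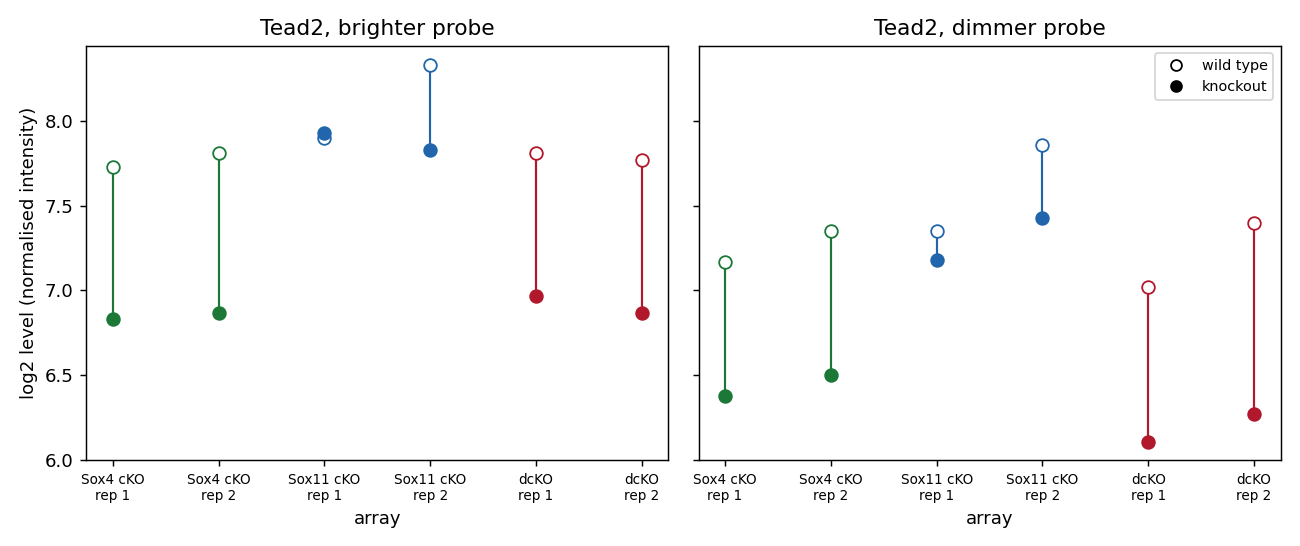
Log2 level of Tead2 (normalised intensity, vertical axis) in the wild-type (open) and mutant (filled) sample of each of the 6 arrays (horizontal axis), joined by a line, for its 2 probes. On the brighter probe the mutant samples of Sox4 cKO and dcKO lie between 6.83 and 6.97 and the wild-type samples between 7.73 and 8.33.

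Whether Tead2 passed in dcKO depended on both of its arrays and on the treatment of the dyes. The drop itself did not, and stayed between -1.10 and -0.72 under all 15 alternative ways of processing. The mean of all probes of a gene is among these, and the others use the brighter probe. Without replicate 1 or replicate 2 of dcKO the brighter probe gave -0.75 (adjusted p = 0.468) and -0.99 (adjusted p = 0.155). Without the dye term, which also pairs the replicates, it kept -0.87 with an adjusted p of 0.0733, and the other probe passed with an adjusted p of 0.0206. With the scanner's own log ratio, by which 0 of 55681 probes passed in dcKO, the brighter probe gave -1.10 (adjusted p = 0.284). In Sox4 cKO it passed with a larger offset of 50 in the background correction (-0.75, adjusted p = 0.0297).

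RNA of cells other than keratinocytes also differed between mutant and wild-type samples. Of 15 dermal fibroblast markers, 12 were lower and 3 (Dcn, Postn and Thy1) higher on both dcKO arrays and none passed, with a median log2 ratio of -0.81 and summed levels of 9815 to 11374 in mutant and 10639 to 15009 in wild-type samples. In bulk tissue, fewer cells of a type and less RNA per cell cannot be told apart. In Sox4 cKO the median over these markers was -1.18 on replicate 1 and 0.42 on replicate 2, with summed levels of 12643 to 14154 in mutant and 10049 to 25248 in wild-type samples. The brighter Tead2 probe had -0.89 and -0.94 on the same 2 arrays. The part of dermal RNA in the Tead2 values was not tested. Markers of the periderm, the shed outer layer, had a median log2 ratio of -1.17 in dcKO, where 3 of 6 passed lower and summed levels were 3643 to 3770 in mutant and 8008 to 8619 in wild-type samples. In Sox4 cKO the same periderm median was 0.48, with 5 of 6 markers higher, and in Sox11 cKO it was -1.15, with 5 of 6 lower. Krt17, 1 of the 3 that passed in dcKO, was the exception in each, at -0.94 in Sox4 cKO and 0.02 in Sox11 cKO. The part of periderm in the dcKO values was not tested. For the other marker lists the dcKO medians were 0.03 (keratinocytes), -0.27 (skeletal muscle), -0.11 (blood vessels), 0.24 (red blood cells), 0.18 (immune cells) and -0.12 (melanocytes), and no gene of them passed.

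Tead1, the TEAD gene with 3 probes on the array, varied between probes. On its brightest probe the log2 ratio was 0.08 and -0.08 in Sox4 cKO, 0.13 and -0.01 in Sox11 cKO, and -0.26 and -0.55 in dcKO. The dcKO mean of -0.40 (± 0.20 SD, n = 2, interval -0.69 to -0.11) did not pass (adjusted p = 0.317). The second probe had 0.15 and -0.14 in dcKO, a mean of 0.01 (adjusted p = 0.995), and the third -0.25 and -0.37, a mean of -0.31 (adjusted p = 0.521). Thus 2 of the 3 Tead1 probes were below 0 on both dcKO arrays and the other was not.

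Tead3 stayed near 0 in its log2 ratio, with 0.14 and -0.05 in Sox4 cKO, -0.10 and 0.14 in Sox11 cKO, and -0.12 and 0.18 in dcKO. Its arrays fell on both sides of 0 in each genotype. The means were 0.05, 0.02 and 0.03, and the dcKO interval of -0.29 to 0.35 does not reach the -0.87 measured for Tead2 (adjusted p = 0.981, 0.989 and 0.977).

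Tead4, which in development is best known for the trophectoderm, was the member with the highest mean ratio in each genotype, though not on every array. Its log2 ratio was 0.22 and 0.08 in Sox4 cKO, 0.03 and 1.25 in Sox11 cKO, and 0.37 and 0.72 in dcKO. All 6 values were above 0, and none of the means passed: 0.15 ± 0.10 (adjusted p = 0.948), 0.64 ± 0.86 (adjusted p = 0.694) and 0.54 ± 0.24 (SD, n = 2 each, adjusted p = 0.434). The Sox11 cKO mean is carried by replicate 2, and was 0.08 without it (adjusted p = 0.997).

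The level of Tead4 differed more between arrays than between mutant and wild type. Its log2 level in wild-type samples was 8.34 and 8.14 beside Sox4 cKO, 6.87 and 5.45 beside Sox11 cKO, and 8.27 and 8.05 beside dcKO. In mutant samples the level was 8.57 and 8.22 in Sox4 cKO, 6.89 and 6.70 in Sox11 cKO, and 8.65 and 8.77 in dcKO. Both samples of both Sox11 cKO arrays were below every other sample, wild type included.

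Ivl (involucrin, a precursor of the cornified envelope) and Krt4 (a periderm keratin) were set beside Tead4 after their values had been seen. The log2 level of Ivl in wild-type samples was 11.85 and 11.17, 9.66 and 7.47, and 11.07 and 10.72 in the same order, lowest on the Sox11 cKO arrays and lowest of all in the same sample as Tead4. That of Krt4 in wild-type samples was 6.62 and 7.48, 9.77 and 10.76, and 7.07 and 7.58, highest on the Sox11 cKO arrays. Krt1 was also lowest on those arrays, at 15.71 and 15.86, 15.45 and 14.42, and 15.68 and 15.51. The differentiation genes Krt10 and Lor (loricrin) did not set both arrays apart. Krt10 was 15.98 and 16.46, 15.66 and 15.23, and 15.61 and 16.11. Lor was 16.02 and 16.07, 16.03 and 15.22, and 15.75 and 15.85. In both, only replicate 2 beside Sox11 cKO was below every other wild-type sample. Wild-type samples of the 3 comparisons thus differed in Tead4, Ivl and Krt4 without any deletion. The stage of the embryos within E16, the litter and the array cannot be told apart here.

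**Figure D3:**
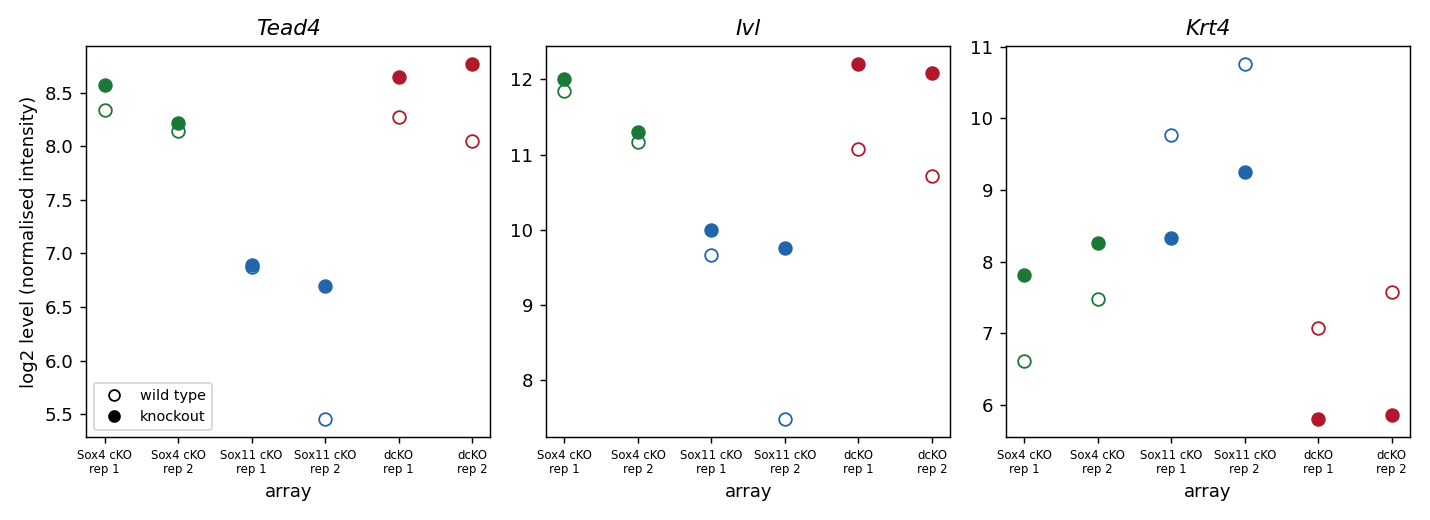
Log2 level (normalised intensity, vertical axis, its own scale in each panel) of Tead4, Ivl and Krt4 in the wild-type (open) and mutant (filled) sample of each of the 6 arrays (horizontal axis). Tead4 is at or below 6.89 in the 4 samples of the Sox11 cKO arrays and at or above 8.05 in the other 8.

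Yap1 and Wwtr1, the coactivators, did not pass in any genotype. The log2 ratio of Yap1 was 0.22 and -0.10 in Sox4 cKO, 0.12 and -0.08 in Sox11 cKO, and 0.00 and -0.29 in dcKO. Replicate 1 was above replicate 2 in each genotype, and the means were 0.06, 0.02 and -0.14 (adjusted p = 0.971, 0.986 and 0.781). Its log2 level ranged from 11.79 to 12.30 in mutant and from 11.88 to 12.38 in wild-type samples. The log2 ratio of Wwtr1 was 0.17 and 0.01 in Sox4 cKO, 0.52 and 0.08 in Sox11 cKO, and 0.20 and 0.18 in dcKO. All 6 values were above 0 and the means were 0.09, 0.30 and 0.19 (adjusted p = 0.95, 0.718 and 0.704), with a dcKO interval of -0.11 to 0.50.

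Lats1 and Lats2, the kinases that inactivate YAP and TAZ, also did not pass. The log2 ratio of Lats1 was -0.09 and 0.28 in Sox4 cKO, 0.14 and -0.15 in Sox11 cKO, and -0.09 and -0.04 in dcKO. Its means were 0.09, -0.01 and -0.07 (adjusted p = 0.956, 0.995 and 0.933). The brighter probe of Lats2 had a log2 ratio of -0.18 and 0.12 in Sox4 cKO, 0.09 and 0.06 in Sox11 cKO, and -0.43 and -0.33 in dcKO. Both dcKO arrays were below all others on this probe, and their mean was -0.38 ± 0.07 (SD, n = 2, interval -0.68 to -0.08, adjusted p = 0.374).

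The other Lats2 probe, assigned to a different RefSeq transcript, went the opposite way in dcKO. Its log2 ratio was -0.14 and -0.30 in Sox4 cKO, -0.22 and -0.11 in Sox11 cKO, and 0.33 and 0.39 in dcKO, so both dcKO arrays were above all others. The dcKO mean was 0.36 ± 0.04 (SD, n = 2, interval 0.06 to 0.65, adjusted p = 0.405), and dcKO minus the sum of the single mutants was 0.75 (interval 0.23 to 1.26, adjusted p = 0.743). This probe was dim, well above background in 4 of 6 mutant and 5 of 6 wild-type samples. In Sox11 cKO no mutant sample and 1 of 2 wild-type samples were. The Sox11 cKO ratios of this probe, and the contrast with the sum that uses them, thus rest on signal near background. With opposite values and neither passing, no direction is given for Lats2 in dcKO.

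**Figure D4:**
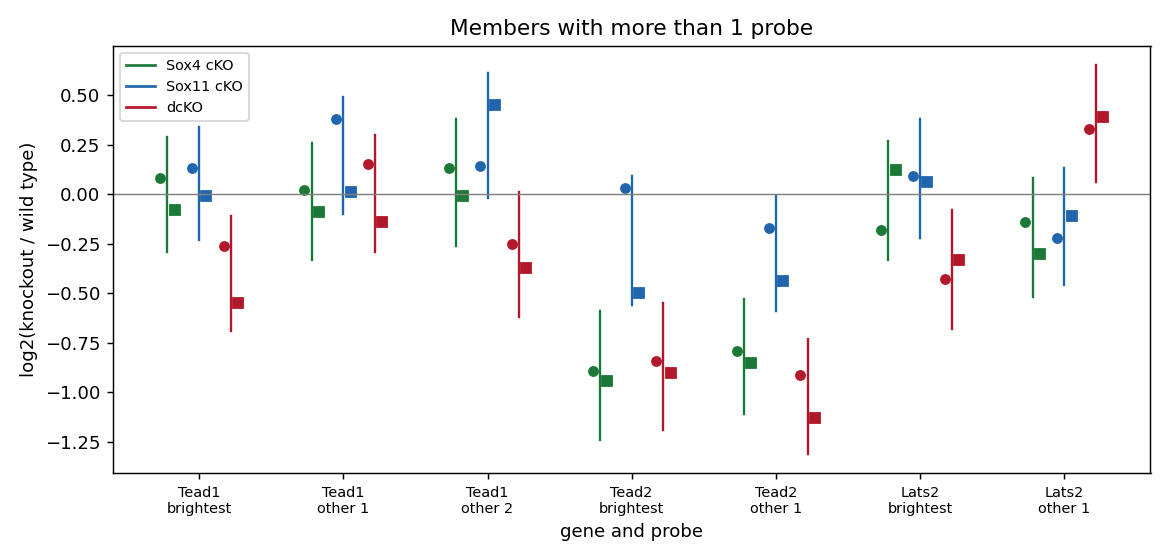
Log2 ratio of mutant over wild-type signal (vertical axis) for each probe of the 3 members with more than 1 probe (horizontal axis), with circles for replicate 1, squares for replicate 2 and lines for the 95% interval of the fitted mean. Both Tead2 probes lie below 0 in Sox4 cKO and dcKO, whereas the 2 Lats2 probes lie on opposite sides of 0 in dcKO, at -0.38 and 0.36.

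Amotl2, which holds YAP at junctions and is itself a target of YAP and TAZ, had a log2 ratio of -0.27 and 0.06 in Sox4 cKO, -0.29 and -0.06 in Sox11 cKO, and -0.25 and 0.25 in dcKO. Its means were -0.11, -0.18 and 0.00 (adjusted p = 0.938, 0.822 and 0.999), and the dcKO interval was -0.30 to 0.29. Its log2 level ranged from 7.08 to 8.23 in mutant and from 7.37 to 8.26 in wild-type samples, with the lowest of each on the arrays of Sox11 cKO.

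The rest of the Hippo cascade had no gene that passed. Of 38 listed kinases, scaffolds and upstream proteins, 37 were named on the array (all but Dchs2) and 30 were well above background on every array. None passed in any genotype, and 3, 3 and 8 had an unadjusted p under 0.05 in limma for Sox4 cKO, Sox11 cKO and dcKO, beside 1370, 1600 and 2769 of all 21370 named genes. Their median dcKO log2 ratio was -0.03. Among genes well above background in a sample of both dcKO arrays, the lowest in dcKO were Tnik (-0.67, adjusted p = 0.113), a MAP4K kinase, and Wwc2 (-0.41, adjusted p = 0.384), a scaffold of the KIBRA family. The highest were Amot, the founding angiomotin (0.79, adjusted p = 0.238), and Stk4, the kinase MST1 (0.51, adjusted p = 0.192). Stk4 was 0.50 and 0.52 on the 2 dcKO arrays, and Amot 0.26 and 1.32.

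The 12 cofactors and partners of TEAD proteins also held none that passed in any genotype, with 1, 2 and 1 at an unadjusted p under 0.05 in limma for Sox4 cKO, Sox11 cKO and dcKO and a median dcKO log2 ratio of -0.07. Among those above background by the same measure, the lowest were Vgll4, which competes with YAP for TEAD binding (-0.50, adjusted p = 0.356), and the coactivator Ncoa3 (-0.20, adjusted p = 0.655). The highest were Fosl1, an AP-1 subunit (0.23, adjusted p = 0.734), and Vgll3 (0.20, adjusted p = 0.732).

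Of 30 genes known as targets of YAP, TAZ and TEAD, 2 passed in dcKO, both lower, and 9 had an unadjusted p under 0.05 in limma there. Of all 21370 named genes, 130 passed lower and 209 higher in dcKO and 2769 had an unadjusted p under 0.05. None passed in Sox4 cKO or Sox11 cKO, with 4 under that unadjusted p in each. The list shares Lats2 and Amotl2 with the members, and its median dcKO log2 ratio was -0.01, like that over all named genes. Rbms3, an RNA-binding protein, had -0.84 and -1.06 on the dcKO arrays (mean -0.95, SE 0.13, adjusted p = 0.0156). Arhgef17 had -0.91 and -0.63 (mean -0.77, SE 0.14, adjusted p = 0.046). Neither call held in every setting, though with the scanner's own log ratio 0 of 55681 probes passed in dcKO, so no call could hold there. With the scanner's own log ratio the adjusted p was 0.262 for Rbms3 and 0.311 for Arhgef17, and without replicate 1 or 2 of dcKO it was 0.106 and 0.291 for Rbms3 and 0.581 and 0.213 for Arhgef17. The mean over all probes of Rbms3 was -0.41 (adjusted p = 0.426), and Arhgef17 was also lost without the replicate block (adjusted p = 0.0901) or without either Sox4 cKO array (adjusted p = 0.0513). Ccn1 and Ccn2, secreted proteins widely used to read YAP activity, were picked from the list after its values had been seen. They had 0.07 (SE 0.27, adjusted p = 0.965) and -0.16 (SE 0.21, adjusted p = 0.867) in dcKO. Ccn1 was imprecise, at -0.75 and 0.78 on the 2 Sox4 cKO arrays. Areg, on the same list and picked in the same way, had -0.62 in dcKO (SE 0.15, adjusted p = 0.16 in limma). Of the 30 targets, 16 were lower and 14 higher in dcKO, so these genes do not stand for the list.

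Among targets that did not pass, the lowest in dcKO were Fstl1, a secreted glycoprotein (-1.78, adjusted p = 0.144), and the cyclin Ccnd1 (-0.77, adjusted p = 0.105), and the highest were the kinase Nuak2 (0.36, adjusted p = 0.436) and Gadd45a (0.42, adjusted p = 0.306). Fstl1 ran from -2.48 to -0.12 between the 2 Sox4 cKO arrays, where the dermal marker median was -1.18 and 0.42. The part of dermal RNA in the value of Fstl1 was not tested.

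**Figure D5:**
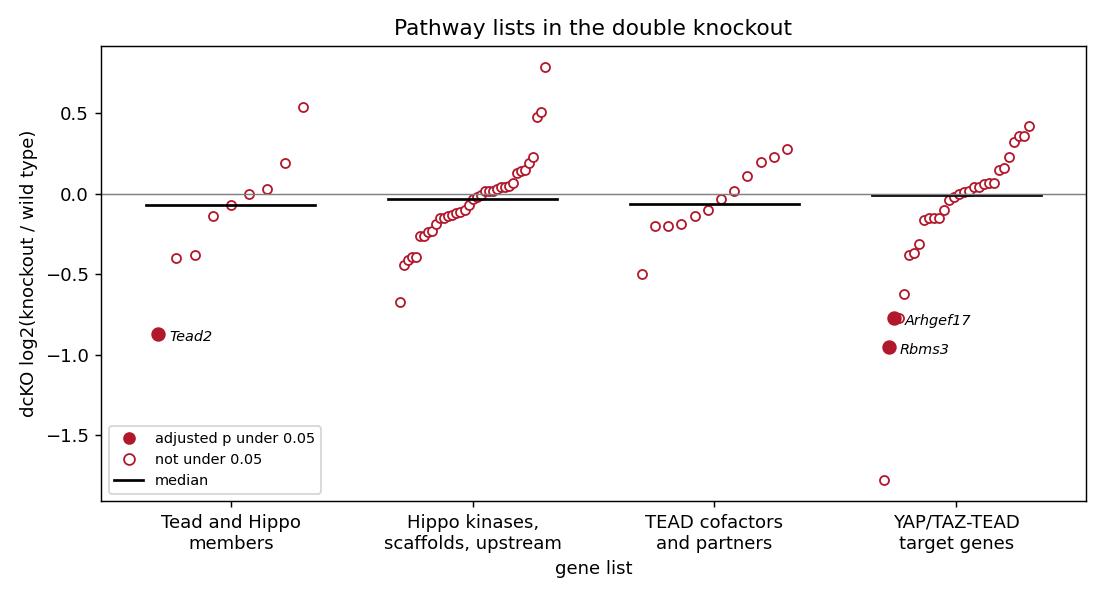
Log2 ratio of mutant over wild-type signal in dcKO (vertical axis) for every gene of the 9 members and of the 3 pathway lists (horizontal axis), ordered by value within a list, with filled points for genes that passed and a bar for the median. The medians are -0.07, -0.03, -0.07 and -0.01, and the filled points are Tead2, Rbms3 and Arhgef17, all below 0.

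The genes whose 6 log2 ratios were nearest to those of the brighter Tead2 probe were sought among 11155 named genes well above background on every array, by root mean square difference. They were Tceal9 (difference 0.123), Hmgb3 (0.133), Atat1 (0.174), Rbms3 (0.200) and Cmtm3 (0.200), and the second Tead2 probe differed by 0.144. Hmgb3, a chromatin protein of the HMG box family, had -0.87 and -0.75 in Sox4 cKO, 0.00 and -0.27 in Sox11 cKO, and -0.95 and -0.95 in dcKO (dcKO adjusted p = 0.0166). Atat1, the acetyltransferase of alpha-tubulin, passed in dcKO as well (-0.84, adjusted p = 0.0447), as did Cmtm3 (-1.12, adjusted p = 0.0128), whereas Tceal9 did not (-0.78, adjusted p = 0.0907). They were picked for their likeness to Tead2, so their values are a description. Rbms3 is the 1 gene that is both on the target list and among these 5. The nearest other member was Tead1, which ranked 1310 with a difference of 0.633, followed by Lats2 at rank 1391 (0.638), and the farthest was Tead4 at rank 10881 (1.25).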

How the data were processed

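Epidermal RNA was hybridised to 6 two-colour Agilent arrays. The deposited scanner files hold intensities and a log10 ratio of Cy5 over Cy3 for 62976 spots (Agilent Feature Extraction 11.0.1.1 per the labels). The authors deposited a table of log2 ratios of mutant over wild type, made with limma 3.5 per the labels by normexp with an offset of 16 and within-array loess. It was used here because its scale, direction and values were checked against recomputed scanner intensities (r of at least 0.9999, slope 1). The array medians in the table ran from -0.00602 to 0.00346. The removal of the colour effect named in the methods is not in this table.

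Here, limma 3.58.1 (R 4.3.3) was fitted to all 55681 probes of the 6 arrays with 1 coefficient per genotype and 1 for the dye, which is also the replicate block, since replicate 1 always has the mutant in Cy5. Same-numbered arrays deviated together (r = 0.259, 0.306 and 0.328). They also share the dye orientation, so an effect of the dye and one of the replicate cannot be told apart. Tests were two-sided and moderated (2 residual and 6.65 prior degrees of freedom), with Benjamini-Hochberg adjustment over all probes and a threshold of 0.05. Replicates are described as biological, and 2 per genotype limit the precision. ComBat was written out in R after its parametric form. The fit was tested on simulated data.

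Probes were named through RefSeq accessions (28341 probes, 21370 symbols, table of GRCm38.p6). The array was designed on an earlier build, so no probe coordinates are given. The positions printed with the sequences are those of GRCm38.p6. Named genes were all 9 members, list genes that passed in any genotype, otherwise the 2 highest and 2 lowest in dcKO of each list among genes well above background on both dcKO arrays, Sox4, Sox11 and Sox12, and the 5 genes nearest to Tead2. Markers of keratinocytes, dermal fibroblasts, skeletal muscle, blood vessels, red blood cells, immune cells, melanocytes and periderm were counted. The members and lists were chosen with earlier results of these data known.

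Alternatives were scanner values recomputed, normexp offset 50, no background subtraction, median centring, the Feature Extraction log ratio, no replicate block, ComBat on the dye, a filter leaving 25087 probes, the mean of all probes of a gene, and leaving out each array in turn.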

Additional observations from a re-analysis of the deposited data

How the results depend on the processing

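The log2 ratio of Tead2 was below 0 in Sox4 cKO and dcKO under all 15 alternatives on both probes where a probe value exists, and ranged from -1.10 to -0.72 on the brighter probe in dcKO. There were 2 arrays per genotype, and of the member probes only the second of Lats2 was not well above background in every sample. With an offset of 50 or no background subtraction, 1 member passed in Sox4 cKO, namely Tead2 (-0.75, adjusted p = 0.0297, and -0.81, adjusted p = 0.04). In dcKO 2 members passed with an offset of 50 (Tead1 joined, -0.39, adjusted p = 0.026), 3 with ComBat (Tead1, -0.40, adjusted p = 0.0217, and Lats2, -0.38, adjusted p = 0.0341), 0 with the Feature Extraction log ratio (Tead2 -1.10, adjusted p = 0.284) and 0 without the replicate block (Tead2 -0.87, adjusted p = 0.0733). ComBat removes the dye effect before the fit without counting it, and 3628 probes passed in dcKO with it, against 464 in the reported fit and 1376 with an offset of 50, 1105 without background subtraction, 0 with the Feature Extraction log ratio and 270 without the block.

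Of the Hippo cascade, 4 genes passed in dcKO with an offset of 50, 3 without background subtraction and 5 with ComBat. Of the cofactors 1 passed with the mean of all probes, by which 353 of 48710 genes and unnamed probes passed in dcKO. Of the targets 4 passed with an offset of 50, 5 without background subtraction, 0 with the Feature Extraction log ratio, 1 without the replicate block, 6 with ComBat and 1 with the mean of all probes. The cause of these moves was not tested. Leaving out 1 array at a time gave 0 to 1 member in dcKO (0 without either dcKO array, which leaves a lone array assumed to vary like the others), 0 to 1 gene of the Hippo cascade (1 without either Sox11 cKO array) and 0 to 3 targets (0 without either dcKO array).

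Reversed directions touched members near 0. With median centring, the log2 ratio turned to -0.05 for Tead1, -0.08 for Tead3, -0.09 for Yap1 and -0.03 for Lats2 in Sox11 cKO, to -0.05 for Tead3 in dcKO, and to 0.06 for Lats2 and 0.01 for Amotl2 in Sox4 cKO. With the Feature Extraction log ratio it turned to -0.02 for Yap1 and 0.02 for Lats1 in Sox11 cKO, and with the mean of all probes to -0.05 for Lats2 in Sox11 cKO. Leaving out 1 array gave, in Sox4 cKO, -0.19 to 0.28 for Tead3, -0.31 to 0.61 for Tead4, -0.15 to 0.34 for Lats1 and -0.16 to 0.10 for Lats2. In Sox11 cKO it gave -0.07 to 0.11 for Tead3, -0.03 to 0.07 for Yap1, -0.26 to 0.24 for Lats1 and -0.03 to 0.19 for Lats2, and in dcKO -0.11 to 0.17 for Tead3.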
